A study of Mus musculus with 8 samples.

Results

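Expression of 7 genes of the interleukin 1 (IL-1) family and its receptors was examined in bone marrow monocytes of 4 mouse genotypes. The 7 genes were Il1b, Il1rn, Il18, Il1rap, Il1rl2, Il1r2 and Irak3. They were chosen by name, for their place in the pathway, and were 7 of the 13744 genes in the deposited table. All 7 passed the filter, a mean level of 1 CPM or more (reads scaled by library size), and 12752 genes in all were tested. The cells were labelled Ly6C+ classical monocytes, the circulating precursors of Ly6C-low nonclassical monocytes, and the series asked how Bcl6, Irf2 and Nr4a1 act in them. Each genotype (Wild-type, Bcl6 cKO, Irf2 KO and Nr4a1 KO) had 2 libraries of bulk RNA. Neither the Cre driver nor the deleted part of Bcl6, nor the strain, age and sex of the mice, is stated in the labels. Whether the 2 libraries of a genotype came from separate mice is not stated either, so p-values measure the spread between these libraries, which may be technical.

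The IL-1 family holds secreted cytokines that start inflammation, and monocytes are among their main producers. IL-1 beta, encoded by Il1b, and IL-18 are made as precursors that caspase-1 cuts after an inflammasome has assembled, and both can leave the cell through gasdermin D pores. IL-1 beta binds its receptor chain, and the chain IL-1RAcP (encoded by Il1rap), shared with some but not all family receptors, joins it. The adaptor MyD88 with IRAK kinases then activates NF-kB. The family carries its own brakes, among them the receptor antagonist encoded by Il1rn, the decoy receptor encoded by Il1r2 and the kinase-dead IRAK-M encoded by Irak3.

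Libraries held 46617756 to 62633123 reads assigned to genes, and 1 CPM stood for 47.9 to 61.8 reads. Counts behind the 7 genes ran from 31 reads (Il1b in an Irf2 KO library) to 1705 reads (Il1rl2 in a Bcl6 cKO library). The targeted genes were examined to check the labels. Nr4a1 stood at 4.64 and 5.29 log2 CPM in wild type and at 2.32 and 2.98 in Nr4a1 KO, and Irf2 at 7.18 and 7.14 in wild type and at 6.50 and 6.69 in Irf2 KO. Bcl6 stood at 4.66 and 4.64 in wild type and, higher, at 6.53 and 6.40 in the libraries labelled Bcl6 cKO. Since the deleted part of Bcl6 is not stated, its total RNA level cannot check this label. The direction of every Bcl6 cKO result therefore rests on the label alone. In Irf2 KO the other targeted genes were low as well, with Nr4a1 at 2.59 and 2.52 and Bcl6 at 3.37 and 3.79 log2 CPM. Ly6c2, which encodes a Ly6C antigen, was at 2884 to 6247 CPM in all 8 libraries, and all 10 monocyte markers listed were above 1 CPM on average. In bulk RNA, fewer cells of a type and less RNA per cell cannot be told apart.

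Promoter sequence is shown for the genes with the largest called change in each knockout, Il1rl2 in Bcl6 cKO, Il1rn in Irf2 KO and Il1b in Nr4a1 KO, together with a short site at Il1rap. Each stretch is taken from RefSeq on GRCm38.p6, is written 5′ to 3′ on the strand of the gene and, for the 3 promoters, ends at the base before the start of transcription. All 7 genes matched by symbol, with 10 annotated starts. Capitals mark a motif match. Il1b lies at chr2:129371140-129371389 (minus strand), where the capitals are a TATA box match 31 bases before the start. Il1rn is shown at chr2:24345041-24345290 (plus strand), 1 of its 3 annotated starts, and Il1rl2 at chr1:40324339-40324588 (plus strand). The Il1rap stretch of 30 bases lies at chr16:26581715-26581744 (plus strand), just inside the first exon, and holds 2 GAAA repeats of the kind bound by interferon regulatory factors.
Il1b: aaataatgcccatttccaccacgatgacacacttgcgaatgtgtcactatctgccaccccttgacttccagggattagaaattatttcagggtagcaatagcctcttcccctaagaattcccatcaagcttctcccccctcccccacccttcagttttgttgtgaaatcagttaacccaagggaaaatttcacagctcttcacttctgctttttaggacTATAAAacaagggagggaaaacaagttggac
Il1rn: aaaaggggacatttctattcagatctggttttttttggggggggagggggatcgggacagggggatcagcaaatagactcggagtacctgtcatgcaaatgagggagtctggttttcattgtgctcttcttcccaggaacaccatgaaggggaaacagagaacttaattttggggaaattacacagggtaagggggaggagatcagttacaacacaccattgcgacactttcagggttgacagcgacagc
Il1rl2: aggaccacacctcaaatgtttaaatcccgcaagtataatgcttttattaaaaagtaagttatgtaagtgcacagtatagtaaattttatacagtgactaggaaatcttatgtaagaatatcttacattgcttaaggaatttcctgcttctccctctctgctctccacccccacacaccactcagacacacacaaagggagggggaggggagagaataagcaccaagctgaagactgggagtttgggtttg
Il1rap: tccggaggggGAAAAAGAAAgtgcggcgga

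Searches covered 250 bases before and 50 bases after each start. The interferon regulatory factor pattern GAAANNGAAA (both strands) was found in 3.44% of the 32851 mouse windows searched, and among the 7 genes at Il1rap. The windows searched do not cover every chromosome. The NR4A pattern AAAGGTCA (both strands) was in 1.51% of windows and in none of the 10 windows of the 7 genes. A BCL6 pattern, TTCCTNGAA (both strands), was in 1.59% of windows and, among the 7 genes, before the start of Il1r2 at chr1:40086093. That start lies inside the span given for Il1r2 below. TATAAA on the strand of the gene was in 8.32% of windows and, among the 7 genes, at Il1b. These matches describe letters only, since binding was not measured.

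Across the 3 comparisons with wild type, 2 of the 7 genes were called in Bcl6 cKO, 1 in Nr4a1 KO and 3 in Irf2 KO. A call is an adjusted p under 0.05 in limma with Benjamini-Hochberg adjustment over all 12752 genes. In Bcl6 cKO the 2 called genes, Il1rl2 and Il1rn, both rose, against 5.01% of all genes called in either direction. In Irf2 KO the 3 called genes, Il1rn, Il1rap and Il1b, all fell, against 21.6% of all genes. In Nr4a1 KO only Il1b was called among the 7 genes, and it rose, against 15.1% of all genes. The median log2 fold change of the 7 genes was 0.89 for Bcl6 cKO, -1.07 for Irf2 KO and 0.23 for Nr4a1 KO, beside medians over all tested genes of -0.01, -0.04 and 0.01. The 3 comparisons share the same 2 wild type libraries.

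**Figure D1:**
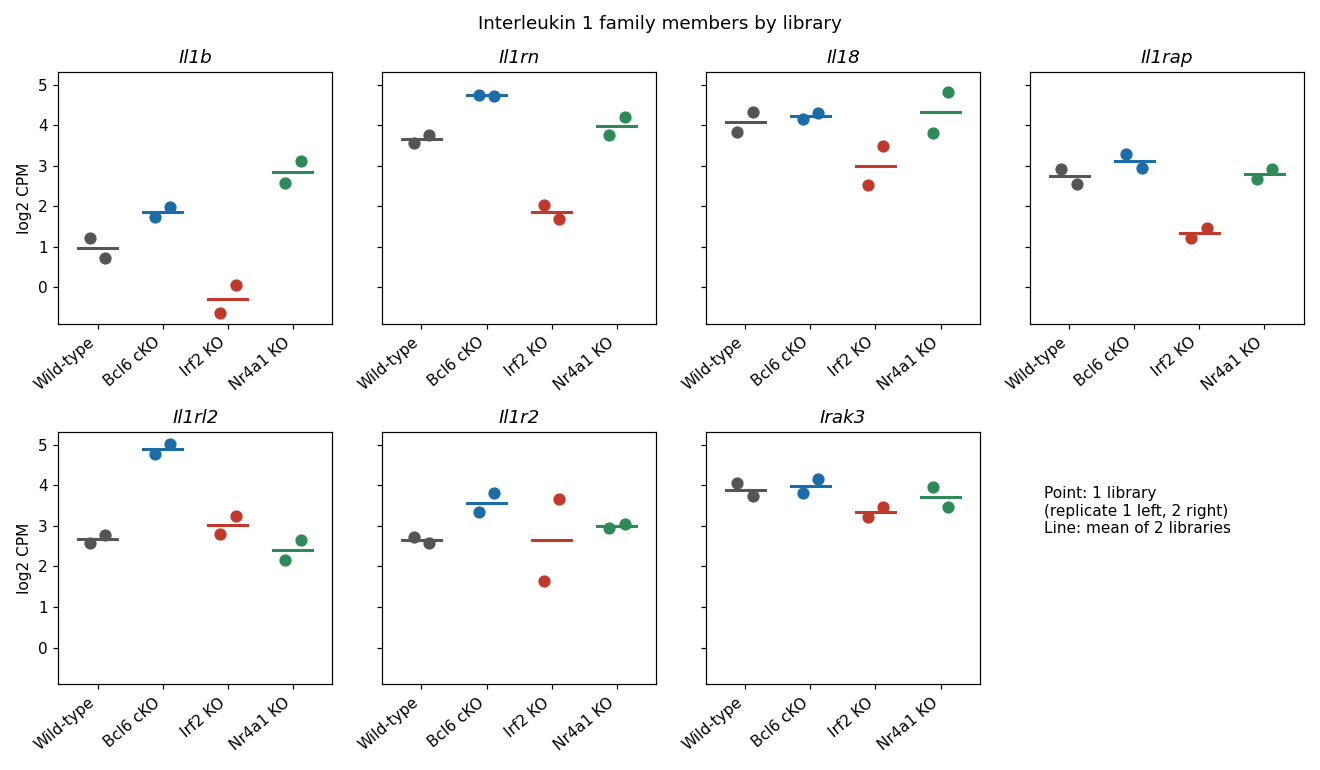
Level of each of the 7 genes in log2 CPM (vertical axis) in each of the 8 libraries, grouped by genotype. Points are libraries and lines are means of 2. Il1b and Il1rn are lowest in Irf2 KO, Il1b is highest in Nr4a1 KO, Il1rl2 stands alone in Bcl6 cKO, and the 2 Irf2 KO libraries of Il1r2 lie far apart at 1.65 and 3.67.

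Among the ligands, Il1b (ENSMUSG00000027398, chr2:129364570-129371139, minus strand) had the widest range. It was counted 134 and 84 times in the wild type libraries, 207 and 204 times in Bcl6 cKO, 31 and 56 times in Irf2 KO, and 302 and 413 times in Nr4a1 KO. In log2 CPM these are 1.21 and 0.72 in wild type, 1.75 and 1.97 in Bcl6 cKO, -0.62 and 0.05 in Irf2 KO, and 2.57 and 3.11 in Nr4a1 KO. No 2 genotypes overlapped, and the order from low to high was Irf2 KO, wild type, Bcl6 cKO, Nr4a1 KO. Il1b rose 3.66-fold in Nr4a1 KO (log2 fold change 1.87 ± 0.35 SE, limma adjusted p = 0.00776, n = 2 libraries per genotype). It fell 2.38-fold in Irf2 KO (-1.25 ± 0.35, limma adjusted p = 0.0349). In Bcl6 cKO its log2 fold change was 0.89 ± 0.35 (limma adjusted p = 0.182), with a 95% interval of 0.10 to 1.68 before adjustment. The rise in Nr4a1 KO was lost without wild type replicate 2 (limma adjusted p = 0.0574). The fall in Irf2 KO is the least secure of the 3 calls there, being lost in 9 of 18 alternative fits (limma adjusted p up to 0.168).

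Il1rn (ENSMUSG00000026981, chr2:24336853-24351494, plus strand) encodes the receptor antagonist, which occupies the IL-1 receptor without signalling. Its levels were 3.55 and 3.75 log2 CPM in wild type, 4.75 and 4.71 in Bcl6 cKO, 2.04 and 1.69 in Irf2 KO, and 3.75 and 4.21 in Nr4a1 KO. Both Bcl6 cKO libraries lay above and both Irf2 KO libraries below every other library. It fell 3.44-fold in Irf2 KO (log2 fold change -1.78 ± 0.21 SE, limma adjusted p = 0.00193) and rose 2.11-fold in Bcl6 cKO (1.08 ± 0.21, limma adjusted p = 0.0249). In Nr4a1 KO the value was 0.33 (limma adjusted p = 0.332), and its lower library was level with the higher wild type library. The rise in Bcl6 cKO was lost without any 1 of the wild type or Bcl6 cKO libraries (limma adjusted p = 0.0714 to 0.176), whereas the fall in Irf2 KO was called in every fit run.

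Since the antagonist and its agonist compete for 1 receptor, the ratio of Il1rn to Il1b was taken per library, after dividing each CPM by the exon length of the gene in kb. This ratio was chosen after the values were seen. It was 1.75 and 2.83 in wild type, 2.78 and 2.30 in Bcl6 cKO, 2.21 and 1.08 in Irf2 KO, and 0.783 and 0.739 in Nr4a1 KO. Both Nr4a1 KO libraries had more Il1b than Il1rn per kb, which no library of the other genotypes had. In CPM, without the division, Il1rn stayed above Il1b there (13.4 against 5.92 and 18.5 against 8.62). Which gene is higher therefore depends on the exon lengths, 5535 bases for Il1rn and 1907 for Il1b, pooled over all transcripts. The log2 ratio differed from wild type by 0.19 in Bcl6 cKO, -1.55 in Nr4a1 KO and -0.52 in Irf2 KO. The two-sided exact permutation p was 1, 0.333 and 0.667, and 0.333 is the smallest that 2 libraries against 2 allow.

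Il18 (ENSMUSG00000039217, chr9:50554827-50581840, plus strand), the ligand of the IL-18 receptor and an inducer of interferon gamma in lymphocytes, was the most abundant of the 7 per kb of exon. Its levels were 3.84 and 4.31 log2 CPM in wild type, 4.15 and 4.30 in Bcl6 cKO, 2.52 and 3.49 in Irf2 KO, and 3.80 and 4.83 in Nr4a1 KO. Both Irf2 KO libraries lay below the other 6, but they differed by nearly as much from each other as from wild type. The log2 fold change in Irf2 KO was -1.07 ± 0.39 (limma adjusted p = 0.0783). In Bcl6 cKO and Nr4a1 KO it was 0.14 and 0.23 (limma adjusted p = 0.875 and 0.726).

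Receptor chains were next. Il1rap (ENSMUSG00000022514, chr16:26581704-26730117, plus strand) encodes the accessory chain shared by the receptors for IL-1, IL-33 and IL-36. It stood at 2.93 and 2.55 log2 CPM in wild type, 3.29 and 2.95 in Bcl6 cKO, 1.22 and 1.46 in Irf2 KO, and 2.68 and 2.92 in Nr4a1 KO. The Irf2 KO libraries lay far below the other 6, and the Bcl6 cKO libraries (lower value 2.95) just above the higher wild type library (2.93). In Irf2 KO Il1rap fell 2.64-fold (log2 fold change -1.40 ± 0.24 SE, limma adjusted p = 0.00631). This call was kept in every fit run. The values in Bcl6 cKO and Nr4a1 KO were 0.38 and 0.06 (limma adjusted p = 0.413 and 0.898). Il1rap is the gene with the GAAA repeat site shown above, a pattern found in 3.44% of all windows searched. Il1rn and Il1b, which also fell in Irf2 KO, had no match. Any part of the site in the fall of Il1rap was not tested. Of the exon bases of Il1rap, 552 overlap an antisense gene, Gm20319, which is not in the deposited table. Strand-aware counting is not stated in the labels.

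Il1rl2 (ENSMUSG00000070942, chr1:40324610-40367562, plus strand) encodes the IL-36 receptor chain, which pairs with the Il1rap product. It was counted 346 and 349 times in wild type and 1697 and 1705 times in Bcl6 cKO. Levels were 2.58 and 2.77 log2 CPM in wild type, 4.78 and 5.03 in Bcl6 cKO, 2.80 and 3.24 in Irf2 KO, and 2.16 and 2.64 in Nr4a1 KO. The Bcl6 cKO libraries stood far above the other 6, which lay between 2.16 and 3.24. Il1rl2 rose 4.69-fold in Bcl6 cKO (log2 fold change 2.23 ± 0.24 SE, 95% interval 1.69 to 2.77, limma adjusted p = 0.00331), the largest change of the 7 genes in the 3 comparisons with wild type. Across all fits run the value stayed between 2.07 and 2.36. In Irf2 KO and Nr4a1 KO the values were 0.35 and -0.27 (limma adjusted p = 0.321 and 0.486).

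The decoy receptor gene Il1r2 (ENSMUSG00000026073, chr1:40074079-40125231, plus strand) encodes a receptor that binds IL-1 without signalling. It lies near Il1rl2 on chromosome 1. Its levels were 2.74 and 2.58 log2 CPM in wild type, 3.33 and 3.81 in Bcl6 cKO, 1.65 and 3.67 in Irf2 KO, and 2.95 and 3.04 in Nr4a1 KO. Libraries of Irf2 KO enclosed those of wild type on both sides, with 152 reads in replicate 1 and 695 in replicate 2. No change from wild type was called (0.91 ± 0.53 in Bcl6 cKO, 0.33 in Nr4a1 KO and 0.00 ± 0.53 in Irf2 KO, limma adjusted p = 0.369, 0.716 and 0.997). The 95% interval in Irf2 KO ran from -1.20 to 1.20, and the value was -1.01 or 1.01 depending on which Irf2 KO library was left out. Il1r2 is also abundant in neutrophils, and the summed level of 12 neutrophil markers was 595 CPM in replicate 1 and 1213 CPM in replicate 2 of Irf2 KO. In wild type that sum was 2431 and 2169 CPM, in Bcl6 cKO 1339 and 1153 CPM, and in Nr4a1 KO 2989 and 2501 CPM, so it was lower in Bcl6 cKO than in wild type where Il1r2 was higher. The part of neutrophil RNA in the Il1r2 values was not tested.

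**Figure D2:**
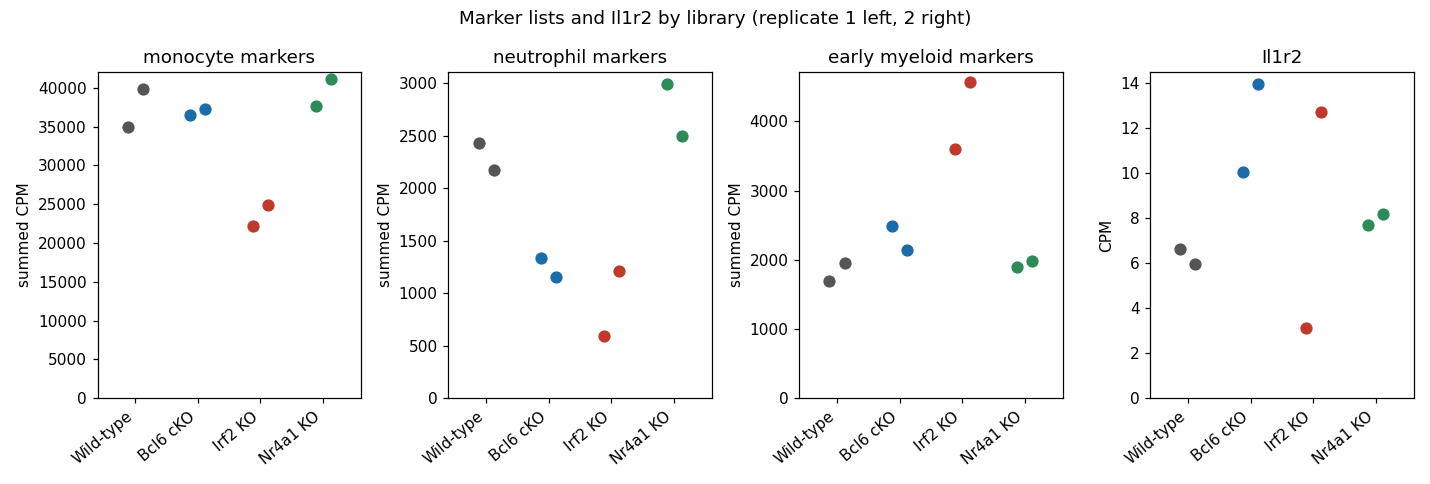
Summed CPM of monocyte, neutrophil and early myeloid markers, and CPM of Il1r2, in each of the 8 libraries (vertical axes start at 0, points are libraries). Irf2 KO libraries are lowest for monocyte and highest for early myeloid markers, and the Irf2 KO library with more Il1r2 also has more neutrophil marker RNA (1213 against 595 CPM). Lyz2 makes up most of the monocyte sum.

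Irak3 (ENSMUSG00000020227, chr10:120141648-120202130, minus strand) encodes IRAK-M, which restrains the receptor complex in monocytes and macrophages. Its levels had the narrowest range of the 7 genes, from 3.22 to 4.17 log2 CPM. They were 4.05 and 3.74 in wild type, 3.82 and 4.17 in Bcl6 cKO, 3.22 and 3.47 in Irf2 KO, and 3.95 and 3.47 in Nr4a1 KO. Apart from the Irf2 KO libraries, which lay below both wild type libraries, the genotypes overlapped. No change was called, with values of 0.10 in Bcl6 cKO, -0.18 in Nr4a1 KO and -0.55 ± 0.22 in Irf2 KO (limma adjusted p = 0.849, 0.629 and 0.113). Irak3 shares 192 exon bases with Tmbim4 on the opposite strand, a gene at 6.56 to 7.34 log2 CPM, so reads there may not be told apart.

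**Figure D3:**
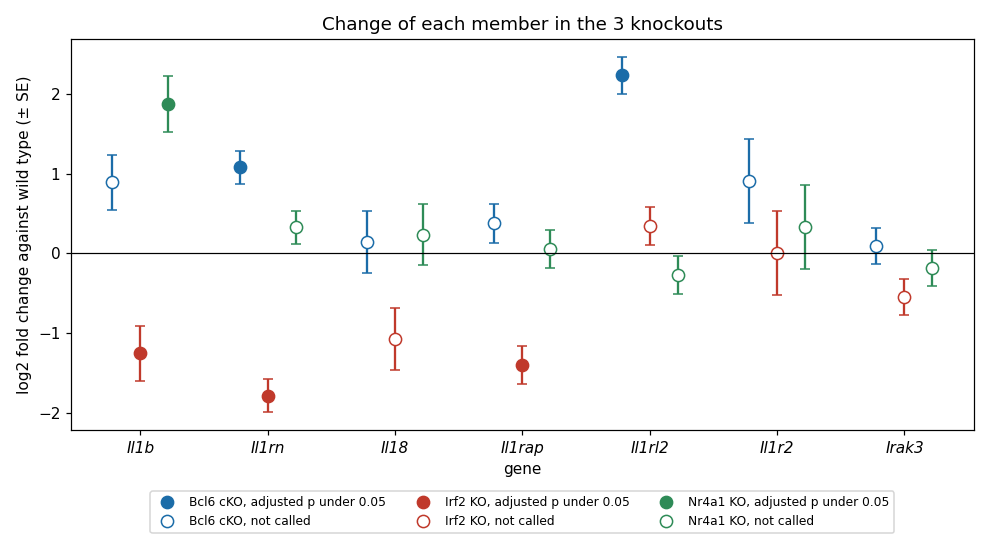
Log2 fold change against wild type (vertical axis, bars are ± SE from limma, n = 2 libraries per genotype) for each of the 7 genes in the 3 knockouts. Filled points have an adjusted p under 0.05. Il1rl2 in Bcl6 cKO (2.23) and Il1b in Nr4a1 KO (1.87) are the highest points, and Il1rn in Irf2 KO (-1.78) is the lowest.

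Levels were compared between genes per kb of exon, where lengths pooled over all transcripts understate genes with many isoforms. In wild type the order in CPM per kb was Il18 (13.9 and 19.3), Irak3 (4.52 and 3.63), Il1r2 (3.49 and 3.14), Il1rn (2.12 and 2.43), Il1b (1.21 and 0.858), Il1rl2 (0.876 and 0.998) and Il1rap (0.669 and 0.516). Of the neighbours in this order only Il1b and Il1rl2 overlapped. In Bcl6 cKO Il1rl2 reached 4.03 and 4.80 CPM per kb, a range that overlapped those of Il1rn and Irak3 in the same libraries. In Nr4a1 KO Il1b reached 3.10 and 4.52 CPM per kb.

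The knockouts were also compared with each other, which tests whether their effects differ and does not use the wild type libraries in the difference. Against Irf2 KO, 4 of the 7 genes were higher in Bcl6 cKO, with 9.55% of all genes called. These were Il1rn (log2 difference 2.86, limma adjusted p = 0.000672), Il1b (2.14, limma adjusted p = 0.00929), Il1rl2 (1.88, limma adjusted p = 0.00384) and Il1rap (1.78, limma adjusted p = 0.00516). Of these 4 only Il1rn was called in every fit run, since Il1b and Il1rap lost the call without Bcl6 cKO replicate 1 (limma adjusted p = 0.0663 and 0.0599), and Il1b and Il1rl2 without replicate 2 (limma adjusted p = 0.0925 and 0.0517). Against Irf2 KO, 4 of the 7 genes were also higher in Nr4a1 KO, with 22.3% of all genes called. They were Il1b (3.12, limma adjusted p = 0.000511), Il1rn (2.11, limma adjusted p = 0.000305), Il1rap (1.46, limma adjusted p = 0.00363) and Il18 (1.31, limma adjusted p = 0.041). The Il18 difference was lost in 9 of 18 alternative fits. Both of these comparisons share the Irf2 KO libraries.

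Bcl6 cKO and Nr4a1 KO differed in 1 of the 7 genes, Il1rl2, with 5.75% of all genes called. It was higher in Bcl6 cKO by 2.50 on the log2 scale (limma adjusted p = 0.000603). For Il1b, called in Nr4a1 KO but not in Bcl6 cKO against wild type, the difference between these knockouts was -0.98 (limma adjusted p = 0.164). For Il1rn, called in Bcl6 cKO but not in Nr4a1 KO, it was 0.75 (limma adjusted p = 0.0809). By this fit neither gene was shown to respond differently in these 2 knockouts, but Il1rn was called with limma voom on recovered reads (0.76, limma adjusted p = 0.0427) and without Nr4a1 KO replicate 2 (0.98, limma adjusted p = 0.0387).

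Other family members were taken from lists of ligands and receptor chains. Besides Il1b, Il1rn and Il18, the list of 11 ligands and soluble inhibitors had 1 further gene tested, Il18bp, and besides Il1rap and Il1rl2 and Il1r2 the list of 10 receptor chains had Il18rap and Sigirr. None of these 3 was called in any comparison. Il18bp, which neutralises IL-18, was scattered within genotypes, at 0.20 and 0.87 log2 CPM in wild type, 1.10 and 2.19 in Bcl6 cKO, 0.68 and 2.69 in Irf2 KO, and 0.62 and 4.37 in Nr4a1 KO. Il18rap, the accessory chain of the IL-18 receptor, stood at 2.48 and 1.88 in wild type, 1.87 and 2.01 in Bcl6 cKO, 0.48 and 2.83 in Irf2 KO, and 2.60 and 1.82 in Nr4a1 KO. Sigirr, a receptor-like inhibitor, ranged from 4.37 to 5.19 log2 CPM. The deposited table held 4 of the 11 ligands and soluble inhibitors listed and 5 of the 10 receptor chains. Il1a, Il33, the IL-36 ligands, Il1r1, Il1rl1 and Il18r1 were not analysed here.

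Genes that process and release the cytokines changed in both directions. Of 18 tested, 2 rose and 2 fell in Bcl6 cKO, 6 rose and 4 fell in Irf2 KO, and 2 rose and 2 fell in Nr4a1 KO. The shares of all genes called in these comparisons were 5.01%, 21.6% and 15.1%. Ninj1, which ruptures the membrane of dying cells, fell in all 3 knockouts, with log2 fold changes of -1.51 in Bcl6 cKO, -2.34 in Nr4a1 KO and -1.61 in Irf2 KO (limma adjusted p = 0.00954, 0.000227 and 0.00313). Gsdmd, which encodes gasdermin D, fell 3.04-fold in Irf2 KO (limma adjusted p = 0.000346) and 1.34-fold in Bcl6 cKO (limma adjusted p = 0.0428). Casp1, which encodes the converting protease, rose 2.96-fold in Irf2 KO (limma adjusted p = 0.00282) and 1.69-fold in Nr4a1 KO (limma adjusted p = 0.0429). Irf2 KO thus combined lower Gsdmd with higher Casp1 transcripts. Il1b was lower there as well, by a call kept in 9 of 18 alternative fits. Nlrc4, an inflammasome sensor, rose by 0.71 on the log2 scale in Bcl6 cKO (limma adjusted p = 0.0443), and Casp8 fell by 0.59 in Nr4a1 KO (limma adjusted p = 0.00885).

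The 3 neutral serine proteases that can also cut IL-1 family precursors, Ctsg, Prtn3 and Elane, belong to the same list. All 3 rose in Irf2 KO, Ctsg by 1.69, Prtn3 by 1.50 and Elane by 0.85 on the log2 scale (limma adjusted p = 0.00104, 0.00167 and 0.00371). Ctsg also rose by 0.66 in Nr4a1 KO (limma adjusted p = 0.0165) and Elane by 0.53 in Bcl6 cKO (limma adjusted p = 0.048). These are granule genes of immature myeloid cells as well, and all 3 are also among the 7 early myeloid markers listed. The other 4 early myeloid markers (Mpo, Cd34, Myb and Ms4a3) summed to 735 and 841 CPM in Irf2 KO, 348 and 388 CPM in wild type, 425 and 371 CPM in Bcl6 cKO, and 351 and 417 CPM in Nr4a1 KO. Most of this sum was Mpo, at 632 CPM in both Irf2 KO libraries and 311 and 348 CPM in wild type. Myb and Ms4a3 were higher in Irf2 KO too, but Cd34 was lower (4.62 and 2.71 against 10.0 and 11.6 CPM). The part of early myeloid cells in these changes was not tested.

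Receptor-proximal signalling genes were called at a share near or below that of all genes. Of 23 tested, none was called in Bcl6 cKO (5.01% of all genes), 5 fell in Irf2 KO (21.6% of all genes), and 1 rose and 1 fell in Nr4a1 KO (15.1% of all genes). The 4 with the lowest adjusted p in Irf2 KO were Ikbkb, the IKK beta kinase (log2 fold change -0.77, limma adjusted p = 0.00238), Tab1, a partner of the kinase TAK1 (-1.01, limma adjusted p = 0.00423), Peli2, a ubiquitin ligase (-1.17, limma adjusted p = 0.0135), and Irak4, the first kinase of the complex (-0.46, limma adjusted p = 0.0216). In Nr4a1 KO Tollip, an adaptor that dampens the receptor complex, fell by 0.76 (limma adjusted p = 0.00469) and Chuk, the IKK alpha kinase, rose by 0.67 (limma adjusted p = 0.0103).

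NF-kB subunits and their feedback inhibitors that were called against wild type were all lower. Of 16 tested, 2 fell in Bcl6 cKO, 5 in Nr4a1 KO and 7 in Irf2 KO, and none rose. Of all genes, 5.01%, 15.1% and 21.6% were called, and 466 of 639, 1423 of 1925 and 1574 of 2755 of those calls were lower. That lean towards lower calls depends on the scaling, since after median centring 40.7%, 50.7% and 59.3% of calls were higher, against 27.1%, 26.1% and 42.9% before. Between Nr4a1 KO and Irf2 KO, 2 genes of the list were higher and 2 lower. Against wild type, the medians of the list were -0.48 in Bcl6 cKO, -0.48 in Nr4a1 KO and -0.74 in Irf2 KO on the log2 scale, beside -0.01, 0.01 and -0.04 over all tested genes. Nfkbia, which encodes the inhibitor IkB alpha and is itself induced by NF-kB, was at 8.76 and 9.34 log2 CPM in wild type and at 5.25 and 5.32 in Nr4a1 KO, a 13.6-fold fall (log2 fold change -3.76 ± 0.32 SE, limma adjusted p = 0.00011). In Bcl6 cKO it was at 6.29 and 7.37 and fell by 2.22 (limma adjusted p = 0.00847). Nfkbib fell by 3.05 in Nr4a1 KO (limma adjusted p = 0.000178). Nfkb2 fell in all 3, by 1.10, 1.46 and 1.06 in Bcl6 cKO, Irf2 KO and Nr4a1 KO (limma adjusted p = 0.0143, 0.00236 and 0.00566). Rela fell by 0.71 in Irf2 KO and 0.69 in Nr4a1 KO (limma adjusted p = 0.00358 and 0.00251), and Tnip1 and Relb fell by 0.77 and 1.43 in Irf2 KO (limma adjusted p = 0.00735 and 0.0098). Any link between these falls and the rise of Il1b in Nr4a1 KO was not tested.

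Among 9 tested genes that IL-1 and NF-kB induce, 1 fell in each knockout and none rose, beside 5.01%, 21.6% and 15.1% of all genes called in Bcl6 cKO, Irf2 KO and Nr4a1 KO, so the counts say little of the list. Sod2, the mitochondrial superoxide dismutase, fell by 0.95 in Bcl6 cKO and by 1.34 in Nr4a1 KO (limma adjusted p = 0.0122 and 0.000569). In Irf2 KO it was Cxcl2, a neutrophil chemokine, which fell 3.71-fold (limma adjusted p = 0.0213).

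**Figure D4:**
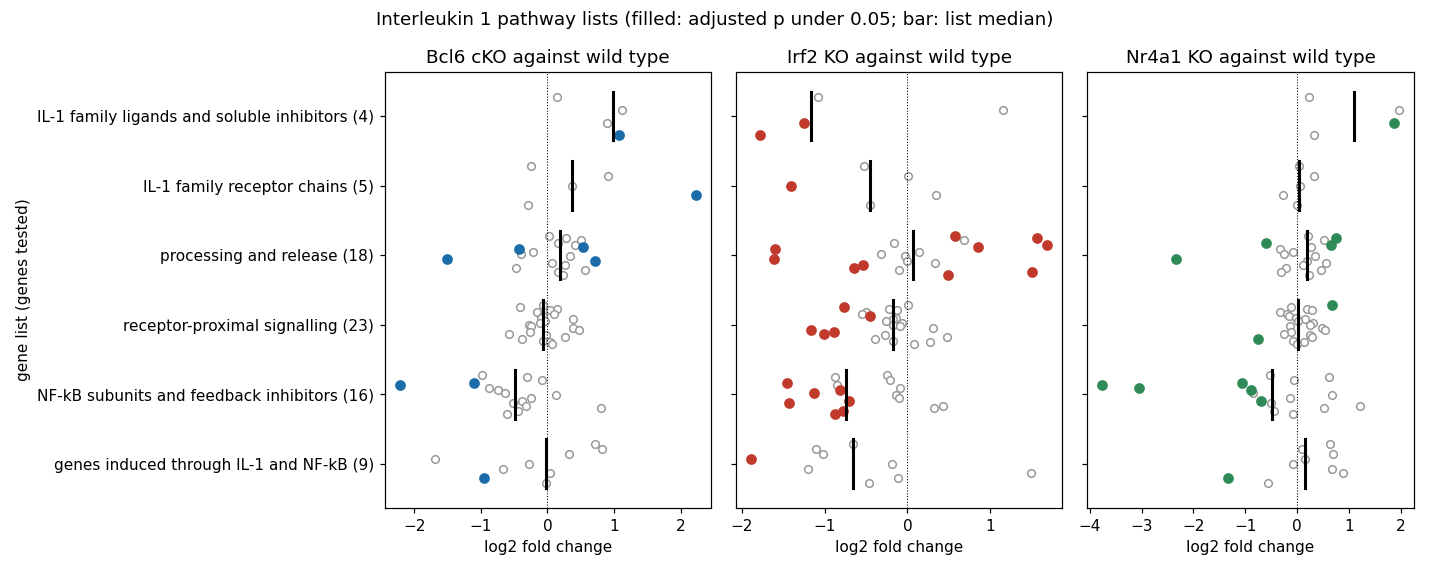
Log2 fold change against wild type (horizontal axis, with its own range in each panel) of every tested gene in 6 IL-1 pathway lists, for the 3 knockouts. Each point is a gene, filled where the adjusted p is under 0.05, and bars are list medians. All filled points of the NF-kB list lie left of 0, and Nfkbia in Nr4a1 KO (-3.76) is the lowest.

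Marker lists for other cells were summed in the same libraries. Neutrophil markers included 3 of 12 that fell in Bcl6 cKO, none in Nr4a1 KO and 7 in Irf2 KO, and none rose, beside 5.01%, 15.1% and 21.6% of all genes called. Ly6g, the defining neutrophil antigen, was at 0.566 to 3.96 CPM. Nonclassical monocyte markers summed to 558 and 697 CPM in wild type, 316 and 324 CPM in Bcl6 cKO, 198 and 190 CPM in Irf2 KO, and 478 and 498 CPM in Nr4a1 KO, with 3, 7 and 5 of 10 lower. Nr4a1 is itself 1 of these 10. Its level in Nr4a1 KO (4.98 and 7.89 CPM, against 24.9 and 39.0 CPM in wild type) is that of the targeted gene. Monocyte markers summed to 35007 and 39897 CPM in wild type and to 22256 and 24862 CPM in Irf2 KO, where 5 of 10 fell and 0 rose. Most of this sum was Lyz2, at 23089 and 26800 CPM in wild type and 11573 and 12697 CPM in Irf2 KO. Ly6c2 was not lower, at 3747 and 4755 CPM in wild type and 5003 and 6247 CPM in Irf2 KO. Early myeloid markers included 6 of 7 that rose in Irf2 KO, while the progenitor marker Cd34 fell, from 10.0 and 11.6 CPM in wild type to 4.62 and 2.71 CPM. The 6 lists of macrophage, dendritic, B, T and NK, basophil and mast, and erythroid markers each summed to between 1.63 and 177 CPM per library. Several of them were lower in Irf2 KO as well. Dendritic cell markers went from 49.7 and 58.1 CPM in wild type to 9.14 and 2.97 CPM (3 of 5 fell), macrophage markers from 154 and 167 to 87.7 and 71.9 CPM (1 of 5 fell), B cell markers from 84.2 and 84.3 to 43.7 and 38.0 CPM (3 of 4 fell), and erythroid markers from 17.2 and 17.0 to 1.63 and 2.91 CPM (2 of 2 fell). The macrophage sum was mostly Adgre1 (138 and 145 CPM in wild type, 68.3 and 59.3 CPM in Irf2 KO), and 1 of 5 called is near the 21.6% of all genes. Nkg7, the 1 T and NK marker tested, was called higher in all 3 knockouts. Some of these sums were low in the other knockouts too. Erythroid sums were 10.3 and 4.64 CPM in Bcl6 cKO and 6.39 and 9.01 CPM in Nr4a1 KO. Dendritic sums were also below wild type in both, at 31.4 and 40.9 CPM in Bcl6 cKO. B cell sums were 42.3 and 52.9 CPM in Bcl6 cKO but 90.4 and 57.9 CPM in Nr4a1 KO. Macrophage sums were not lower in Bcl6 cKO (177 and 172 CPM). By summed level, Irf2 KO thus had fewer neutrophil, nonclassical, dendritic, macrophage, B cell and erythroid marker transcripts than wild type. Cd34 apart, it had more early myeloid ones. In the same libraries Il1b, Il1rn and Il1rap were lower, and the part of these other cells in those falls was not tested. In Nr4a1 KO, where Il1b rose, the neutrophil sum was 2989 and 2501 CPM, above both wild type libraries. None of the 12 markers was called there, and single markers went both ways. Cd177 stood at 661 and 428 CPM against 286 and 369 CPM in wild type. Retnlg was also higher (122 and 157 against 78.3 and 70.8 CPM). Csf3r (144 and 154 against 167 and 178 CPM) and Mmp9 (6.17 and 7.87 against 12.1 and 14.1 CPM) were lower. The part of neutrophil RNA in the rise of Il1b was not tested.

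Across the 8 libraries, Il1rn and Il1rap varied together (Pearson r = 0.95), Il1b and Il1rap less so (r = 0.81), and Il1b and Il1rl2 hardly at all (r = 0.07). These values describe 4 genotypes of 2 libraries and carry no test. Among 9891 genes with mean levels of 4 CPM or more, those most like Il1b included Btg1 (r = 0.99) and Cir1 (0.98), and those most like Il1rn were Esr1 (0.99), Taldo1 (0.99) and Gm43088 (0.98). Il18 was most like Tnfsf13b, Gm11131 and Ubb (r = 0.97 for each), Il1rap like Bcl11a (0.98), Gm34589 (0.98) and Prr13 (0.97), and Il1rl2 like P2ry13 (0.99), Pced1b (0.97) and Washc4 (0.97). Il1r2 was most like Ifi30 (0.93), Cdk13 (0.92) and Il13ra1 (0.91), and Irak3 like Tiam1 (0.97), Ext1 (0.96) and Gm13012 (0.95). With 8 libraries in 4 groups, many genes reach such values.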

How the data were processed

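RNA of 8 bulk libraries (4 genotypes, 2 libraries each) was analysed from 1 deposited table. The values were deposited by the authors as log2 CPM, with 0.5 added to the reads and 1 to the scaled library total, as found by undoing that formula, which gave whole reads to within 0.01 for all 13744 genes. The submitters' processing notes name STAR, featureCounts, Salmon and limma with build mm10, without order. The authors' table also holds log2 fold changes and p-values of the knockouts against wild type, used only as an alternative. Of 13789 rows, 45 repeated rows were left out.

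From these values, limma 3.58.1 in R 4.3.3 fitted 4 group means to 12752 genes whose mean level was 1 CPM or more, using a trended prior variance (4 residual and 4.66 prior degrees of freedom), with Benjamini-Hochberg adjustment per comparison. The fit was also run on simulated reads whose spread depended on the mean level alone. That run does not bear on the calls made here. Exon lengths and positions came from GENCODE M21 on GRCm38, promoters from RefSeq, and figures from matplotlib 3.10.9 in Python 3.11.15. Members, lists and tests were chosen with earlier results of these data known. The text names all 7 members, the other ligands and receptor chains, the targeted genes, up to 4 called genes per pathway list and comparison (a gene so named is also given for its other calls), and the 3 genes most like each member, of which 1 is not reported here. The labels' replicate numbers do not pair samples, since only 2 numbers exist and no shared animal or batch is named. Alternatives changed the filter, the scaling, the prior variance, the log offset, the groups fitted and the libraries kept. Counting error covers only part of the spread.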

Additional observations from a re-analysis of the deposited data

How the results depend on the processing

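Of 15 called member results, 8 were called in every alternative fit in which they were tested, and none of the 42 member results changed direction while called. Of 771 member values over 19 alternative settings, 28 lost a call, 15 gained one and 17 changed sign without a call on either side. Leaving out 1 library in turn gave 1 to 2 members and 33 to 917 genes called for Bcl6 cKO against wild type, 1076 to 3190 genes for Irf2 KO, and 0 to 1 members and 1065 to 1775 genes for Nr4a1 KO. It gave 2 to 5 members and 138 to 1647 genes for Bcl6 cKO against Irf2 KO, 1460 to 2705 genes for Nr4a1 KO against Irf2 KO, and 1 to 2 members and 250 to 859 genes for Bcl6 cKO against Nr4a1 KO. A library left alone in its group was taken to vary as libraries of other groups do. Without a trend, 1 member and 259 genes were called for Bcl6 cKO and 537 genes for Bcl6 cKO against Irf2 KO. With only the 2 groups compared, gene counts were 1054 for Nr4a1 KO, 1947 for Bcl6 cKO against Irf2 KO, 1770 for Nr4a1 KO against Irf2 KO and 484 for Bcl6 cKO against Nr4a1 KO. A correction for GC and length left 1742 genes for Irf2 KO. With a filter at 4 CPM Il1b was not tested, and 0 members were called for Nr4a1 KO. Limma voom on recovered reads called 2 members for Bcl6 cKO against Nr4a1 KO. The cause of the other shifts was not tested.

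With a replicate block, Il18 in Irf2 KO was called (limma adjusted p = 0.0176), as were 2 differences between knockouts, Il1rl2 higher in Irf2 KO than in Nr4a1 KO (0.0447) and Il18 higher in Bcl6 cKO than in Irf2 KO (0.0207). The numbers of 2 genotypes correlated at -0.00 to 0.18 in their replicate differences. Without Irf2 KO replicate 2, Il1r2 was called higher in Bcl6 cKO (1.91, limma adjusted p = 0.0173) and Nr4a1 KO (1.34, 0.0228) than in Irf2 KO. Median centring raised all log2 changes by 0.10 in Irf2 KO and 0.13 in Nr4a1 KO, and moved the share of calls that were higher from 27.1% to 40.7% in Bcl6 cKO, from 42.9% to 59.3% in Irf2 KO and from 26.1% to 50.7% in Nr4a1 KO. The 2 planned tests on the recovered reads with other count models were not run. With 31 to 56 reads, Il1b in Irf2 KO has the largest counting error.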
